A study of Mus musculus with 8 samples.

Results

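In mouse bone-marrow-derived macrophages, 620 accessible regions on chromosomes 1 to 19 were called in all 4 wild-type (WT) libraries and in none of the 4 libraries that lack Lamin-A (KO). They were found by merging the peaks of 8 ATAC-seq peak lists wherever peaks overlapped by at least 1 bp, and they are 0.824% of the 75252 merged regions on these chromosomes (76751 on all chromosomes). They were chosen by the calls themselves, so their presence in WT and absence from KO is a description and not a finding. The mirror set, with a peak in each KO list and in no WT list, held 51 regions (0.0678%). The order of these counts turned with every list cut to the same number of peaks, where 96 regions met the rule and 167 the reverse. That cut removes more of the weakest peaks from the WT lists, which were longer. What lies behind the difference in length was not tested.

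ATAC-seq uses the Tn5 transposase to cut and tag DNA that is not packed away by nucleosomes. Bone marrow cells were cultured for 7 days and then left untreated or activated with lipopolysaccharide (LPS) for 6 h. Cells of all groups were frozen in medium with 5% DMSO and thawed before the assay. The 4 groups were WT untreated, WT with LPS, KO untreated and KO with LPS, with 2 libraries each. The genotype is labelled as wild type or Lamin-A KO. The Lmna allele, the part of the gene removed, the LPS dose, the age of the animals and whether replicates came from different animals are not given in the sources used here. For the LPS libraries the source names contain the word untreated as well, so group membership was taken from the titles and treatment fields.

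As background, Lamin-A is a filament protein made from Lmna that lines the inner face of the nuclear envelope, where it gives the nucleus stiffness and contacts compact chromatin. LPS is a bacterial cell wall component sensed by TLR4, which switches on NF-kB, AP-1 and interferon genes in macrophages. Distal open regions in these cells are mostly enhancers, and regions at gene starts are promoters.

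The deposited WT lists held 53942 to 59750 peaks and the KO lists 44504 to 49661, with no overlap between genotypes. Read totals were not used here. A region absent from a KO list was not called or not kept there, and its DNA may still be open to some degree. All 8 macrophage markers examined (Csf1r, Adgre1, Cd68, Itgam, Spi1, Mertk, Cd14 and Lyz2) had a region called in all 8 libraries. Genes marking other lineages also had such regions, from 2 of 10 for erythroid cells and megakaryocytes to 9 of 11 for dendritic cells.

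Of the 620 WT-only regions, 16 had their summit, the point of highest pileup, in a promoter window from 250 bases before to 50 after a RefSeq start site. The upstream 250 bases of the 5 strongest of these, and of Ccl22, the chemokine gene among them, are shown because the RefSeq promoter table (GRCm38.p6, the same build as mm10) was the sequence used here. They read 5′ to 3′ along the gene, and capitals mark matches to the motifs named in the next paragraph. The Gmfg and Ccl22 stretches hold no match. The promoter table lacks some genes, among them the assigned genes of 49 WT-only regions outside gene spans, so 16 is a minimum.
Kcnk12, chr17:87797995-87798244, minus strand: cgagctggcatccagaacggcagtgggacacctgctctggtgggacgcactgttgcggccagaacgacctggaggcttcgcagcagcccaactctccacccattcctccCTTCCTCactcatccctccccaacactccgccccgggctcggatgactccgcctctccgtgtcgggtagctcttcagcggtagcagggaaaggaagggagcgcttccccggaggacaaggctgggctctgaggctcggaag
Gmfg, chr7:28440687-28440936, plus strand: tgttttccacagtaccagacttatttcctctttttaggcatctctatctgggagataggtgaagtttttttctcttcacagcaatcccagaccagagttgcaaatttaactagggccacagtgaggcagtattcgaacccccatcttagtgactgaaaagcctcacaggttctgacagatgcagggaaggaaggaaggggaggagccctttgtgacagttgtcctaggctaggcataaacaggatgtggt
Ephb6, chr6:41605261-41605510, plus strand: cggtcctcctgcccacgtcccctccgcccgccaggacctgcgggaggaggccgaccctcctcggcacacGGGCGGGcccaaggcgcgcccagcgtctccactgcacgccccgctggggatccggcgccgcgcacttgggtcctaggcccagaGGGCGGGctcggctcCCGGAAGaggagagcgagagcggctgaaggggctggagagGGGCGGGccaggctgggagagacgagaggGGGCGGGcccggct
Zfp932, chr5:109996260-109996509, plus strand: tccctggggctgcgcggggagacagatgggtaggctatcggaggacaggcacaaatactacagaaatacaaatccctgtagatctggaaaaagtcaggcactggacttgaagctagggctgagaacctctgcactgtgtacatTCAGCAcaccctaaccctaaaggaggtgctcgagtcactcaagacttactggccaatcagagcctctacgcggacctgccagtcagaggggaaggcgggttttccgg
Plekhh1, chr12:79028913-79029162, plus strand: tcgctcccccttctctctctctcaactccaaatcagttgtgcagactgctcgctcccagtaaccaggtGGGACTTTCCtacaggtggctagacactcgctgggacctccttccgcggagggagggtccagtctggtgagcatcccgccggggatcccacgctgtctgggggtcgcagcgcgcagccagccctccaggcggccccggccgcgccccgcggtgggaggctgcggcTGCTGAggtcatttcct
Ccl22, chr8:94745434-94745683, plus strand: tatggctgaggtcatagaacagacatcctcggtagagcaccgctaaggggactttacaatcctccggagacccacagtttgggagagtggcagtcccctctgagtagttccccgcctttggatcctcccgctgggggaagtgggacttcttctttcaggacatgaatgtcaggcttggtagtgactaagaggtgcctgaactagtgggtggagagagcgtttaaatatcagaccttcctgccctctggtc

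Matches to 12 motifs were searched on both strands of the 300-base windows: AP-1 TGANTCA, PU.1 GAGGAAG, other ETS CCGGAAG, C/EBP TTGCNNAA, RUNX TGTGGTT, an interferon response motif (GAAA, any 2 bases, GAAA), an NF-kB motif (GGGA, any base, TTTCC), STAT TTCNNNGAA, E-box CACGTG, GC box GGGCGGG, MAF TGCTGA, and the CTCF consensus. Matches of different motifs may share bases. The GC box, bound by Sp and Klf factors, was in 7 of the 16 windows (43.8%), in 44.1% of 392 promoters of regions called in 4 WT and 1 to 3 KO libraries, in 52.1% of 6029 promoters of regions called in all 8, and in 25.7% of all 32544 promoter windows. The other ETS motif was in 1 window (6.25%), that of Ephb6. It was in 8.16% of the promoters of regions with 1 to 3 KO calls, 22.5% of those called in all 8 libraries and 8.91% of all windows. An NF-kB match was found once, in Plekhh1, against 0.415% of all windows. PU.1, the ETS factor of macrophages, matched in 1 window (Kcnk12, against 13.4% of all windows), STAT in 2 (8.33%), the E-box in 1 (7.17%) and MAF in 3 (19.5%). AP-1, C/EBP, RUNX, interferon response and CTCF letters were in none of the 16, against 7.79%, 10.8%, 5.29%, 3.45% and 0.562% of all windows. Median GC was 61.3% in the 16 windows and 61.7% in promoters called in all 8 libraries. With 16 windows these shares are coarse, and each match is a run of letters and not a measured binding site.

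The promoters in view belong to genes of varied function. Fold enrichments are given as deposited and are not scaled between libraries, and the median fold of regions called in all 8 libraries was lower in the LPS WT lists (9.79 and 9.30) than in the untreated WT lists (10.6 and 10.5). Kcnk12 encodes a potassium channel, and its region had a fold enrichment over local background of 5.81 and 6.69 in the untreated WT libraries and 5.74 and 7.25 with LPS. Gmfg encodes a leukocyte factor that takes apart actin branches, and its enrichment was low in every WT library, at 2.81 and 2.52 untreated and 2.69 and 2.60 with LPS. At Ephb6, a receptor of the ephrin family without kinase activity, the untreated values of 7.06 and 7.35 lay above both LPS values of 5.51. The Ccl22 promoter, of a chemokine that attracts T cells, was also higher untreated (5.99 and 5.97) than with LPS (5.00 and 4.59). The reverse order held at H2-Ob, a chain of an MHC class II accessory molecule, with 3.51 and 3.46 untreated and 3.62 and 3.70 with LPS. Hspb1, a small heat shock protein gene, had 5.00 and 5.19 untreated and 4.64 and 3.85 with LPS, and this was the single region assigned to the gene. By percentile within each list, which is scaled alike in all libraries, Ephb6, Ccl22 and Hspb1 were also higher untreated and H2-Ob higher with LPS, each without overlap. The remaining windows belong to Zfp932, Plekhh1, B3gnt4, Stk32c, 4430402I18Rik, Gm46210, Bag2, Dzip1, Cfap221 and Hbq1a.

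Strength is given below as the rank of a region's -log10 p among all peaks of a library, as a percentile from 0 for the weakest to 100 for the strongest peak, averaged over the 4 WT lists. The WT-only regions were weak peaks of the WT lists. Their median percentile was 18.6 and 19.4 in the untreated WT libraries and 19.9 and 17.5 in the LPS WT libraries. Regions called in all 8 libraries had medians of 70.6 to 72.8 in the same lists, and regions called in 4 WT and 1 to 3 KO libraries 28.8 to 34.7. By fold enrichment, the WT-only regions had medians of 5.46, 5.51, 5.51 and 5.23 over the same 4 libraries, against 9.30 to 10.6 for regions called in all 8.

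**Figure D1:**
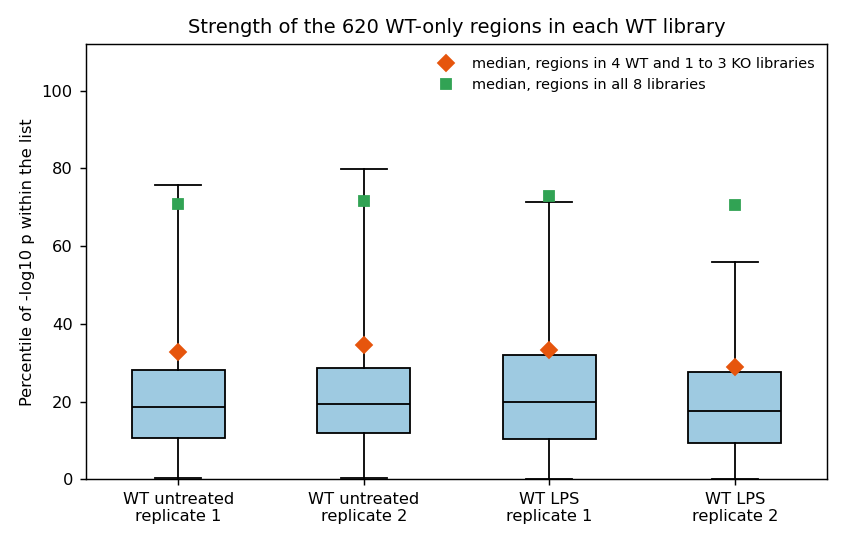
Percentile of -log10 p (vertical axis) of the 620 WT-only regions in each of the 4 WT libraries. Boxes span the quartiles with the median as a line and whiskers reach the lowest and highest region; diamonds and squares give the medians of the other region classes, and the WT-only medians of 17.5 to 19.9 lie below both in each library.

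The share of WT regions without a KO call was lower in stronger bins. Among regions called in all 4 WT libraries, 25.6% of those with a mean percentile under 10 were in no KO list, then 17.5%, 7.14% and 1.74% in the next 3 bins of 10. Of the 620 regions, 85 had a mean percentile over 30 and 3 one over 50. The weakest peak in any KO list had a -log10 p of 7.35 to 7.78, and the 10th percentile of the KO lists was 15.5 to 16.7. Every WT-only region had a -log10 p of at least 8.91 in each WT list, and 231 (37.3%) were above the 10th percentile of every KO list in each WT library. The lowest WT -log10 p had a median of 15.5 in WT-only regions, 18.8 in those with 1 to 3 KO calls and 62.8 in those called in all 8. These p values are not scaled between libraries and read depth is unknown, so they cannot show which regions a KO list could have called.

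**Figure D2:**
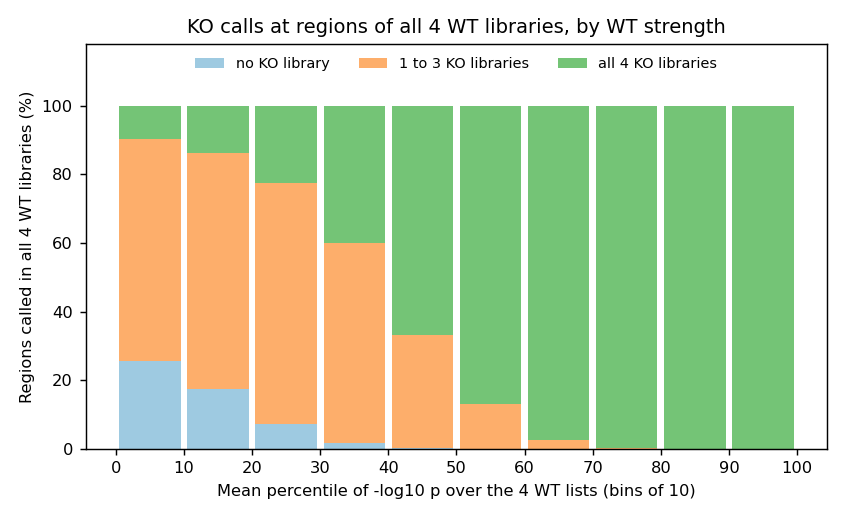
Share of the regions called in all 4 WT libraries (vertical axis, percent) that were called in no, in 1 to 3 or in all 4 KO libraries, by mean WT percentile of -log10 p in bins of 10 (horizontal axis). The share in no KO library is 25.6% in the weakest bin and 1.74% between percentiles of 30 and 40.

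Regions just outside the rule were of similar strength. The 1201 regions called in 4 WT and 1 KO library had a median WT percentile of 23.5, the 1326 called in 3 WT and no KO library 15.5, and the WT-only regions 19.8. The strongest regions missed by 1 KO call lay inside or near Snd1 (percentile 60.9 in WT and 3.90 in the single KO list), Arhgap24 (60.4 and 30.3) and Baz2b (56.1 and 28.3). The strongest missed by 1 absent WT call were on chromosome 3 from 133735615 to 133735957 (percentile 44.6 over its 3 WT lists), on chromosome 3 from 118070108 to 118070601 (43.6), and at Scaper (42.0). Among the weakest regions inside the rule were those assigned to Il17b and Cyb561a3, at percentiles of 3.39 and 3.43.

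Setting all lists to the length of the shortest, 44504 peaks, left 64 of the 620 (10.3%) in the cut lists of all 4 WT libraries. This is in part by construction, since it removes the weakest peaks, which are more numerous in the longer WT lists. In the cut lists, 96 regions met the rule, of which 64 (66.7%) are among the 620 and 32 are not, and 167 met the reverse rule. The 620 became 1151 without WT LPS replicate 2, 1005 without KO untreated replicate 2 and 984 without KO LPS replicate 1, where fewer libraries had to meet the rule.

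A group of 3 regions stood above the rest, with mean percentiles of 64.6, 64.2 and 55.9, before a gap to 42.4 for the fourth. The strongest lay on chromosome 5 from 119887309 to 119887859, 2.33 kb outside the span of Tbx5, a cardiac transcription factor. Its fold enrichment was 13.6 and 14.2 in the untreated WT libraries and 13.5 and 10.3 with LPS. The mean over these libraries was 12.9 ± 1.78 (SD, n = 4), a spread that mixes treatment with replicates. No KO peak lay within 201 kb, and it was the single region assigned to Tbx5. The region inside Fcrl1, a receptor-like gene of B cells, lies on chromosome 3 from 87401208 to 87401873. It had 14.2 and 16.0 untreated and 10.2 and 8.72 with LPS, so both LPS libraries were below both untreated ones. Inside Sh3d19, an SH3-domain adaptor gene on chromosome 3 from 86110073 to 86110486, the values were 13.4 and 12.7 untreated and 10.2 and 6.89 with LPS. All 3 were lower in both LPS libraries than in both untreated libraries by percentile, as were 22.7% of the 620 and 32.8% of all regions called in 4 WT libraries. The regions of Fcrl1 and Sh3d19 lie within 20 Mb of Lmna.

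The next 7 regions had mean percentiles of 39.9 to 42.4. They lay inside Sap30bp (fold enrichment of 7.65 and 10.3 untreated, 7.80 and 9.02 with LPS), 5.77 kb from Car2, a carbonic anhydrase gene, and 21.1 kb upstream of Far1, which makes fatty alcohols. Cd5l, which encodes a secreted macrophage protein, had its region 35.1 kb upstream, with 7.65 and 10.2 untreated and 7.58 and 7.24 with LPS. The Cd5l region also lies within 20 Mb of Lmna. Inside Alpk2, a kinase gene, the values were 7.72 and 7.40 untreated and 5.78 and 4.95 with LPS. Its percentiles (41.3 and 37.6, then 47.5 and 38.2) overlapped and had the higher mean with LPS, so the scales gave opposite orders. The region 15.9 kb upstream of Fosb, an AP-1 subunit, had fold enrichments of 4.64 and 4.33 untreated and 5.69 and 5.30 with LPS, without overlap, and its percentiles had the same order. A KO peak lay 0.283 kb from it, while the Gramd2 region, the tenth in strength, was 12.3 kb from any KO peak.

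Regions ranked 11 to 25 covered further functions. Those outside gene spans lay near Znhit3, Stmnd1, Rgs8, a regulator of G-protein signalling, H1f4, a linker histone, Ctif, and Bmf, a trigger of apoptosis. Those inside genes were in Wwox, Galnt6, which starts O-glycan chains, Ccdc38, Fndc3b, Tbata and Scin, which severs actin filaments. The other 3 had no protein-coding gene within 50 kb. Galnt6 had fold enrichments of 8.98 and 9.93 untreated and 5.60 and 5.87 with LPS. Ccdc38 had 5.62 and 5.02, then 11.9 and 7.29, and Scin had 7.19 and 5.66, then 9.59 and 9.79. By percentile, LPS was above untreated without overlap in 4 of these 15 regions, Ccdc38 and Scin among them, and below in 5, with Galnt6; over all regions called in 4 WT libraries these shares were 29.7% and 32.8%.

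**Figure D3:**
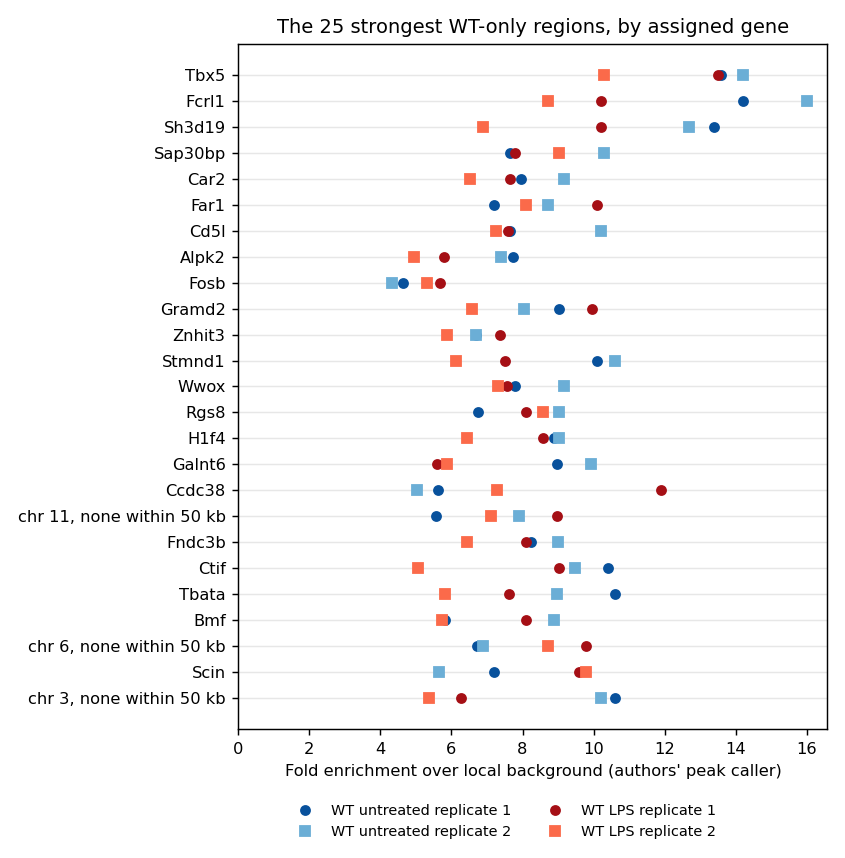
Fold enrichment over local background (horizontal axis) in each of the 4 WT libraries for the 25 WT-only regions with the highest mean percentile, named by assigned gene. Each point is 1 library; Tbx5, Fcrl1 and Sh3d19 reach 13.4 or more in an untreated library.

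Lmna itself held a WT-only region, inside the gene span on chromosome 3 from 88483646 to 88484020. Its fold enrichment was 3.40 and 4.40 in the untreated WT libraries and 5.91 and 5.47 in the LPS WT libraries, so the LPS values were higher without overlap, as were its percentiles (2.06 and 24.8, then 41.7 and 37.3). Of the 12 regions assigned to Lmna, 6 had a peak in every library. A region 0.537 kb away, from 88484558 to 88484979, belonged to the mirror set. Because the removed part of Lmna is not known here, calls inside the gene cannot be told apart from an effect of the targeting on mapped reads.

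The rule did not compare LPS with untreated cells within WT, but it required a call in every library of both groups. A region missing from any WT list, or called in any KO list, was left out, so the rule limits the differences seen here. The WT-only regions did not shift one way as a set. The median difference of LPS minus untreated percentile was 0.299 over the 620, beside -3.34 in regions called in 4 WT and 1 to 3 KO libraries and -0.151 in those called in all 8. Over the 4 single pairs of an LPS and an untreated library it ranged from -1.97 to 1.56, an SD of 1.63, so 0.299 is within the spread between libraries. Single regions varied more widely, from -41.1 to 39.8. In 126 of 620 (20.3%) both LPS libraries were above both untreated ones, against 29.7% of the 39241 regions called in all 4 WT libraries. In 141 (22.7%) both were below, against 32.8%. Both shares were lower than in that background. The background meets the same WT condition but not the absence of KO calls, so part of this difference may come from the rule. Which of the 2 counts was larger depended on the scale: by percentile of fold enrichment 147 were above and 122 below, and by percentile among regions called in all 4 WT libraries 150 and 124. Shares also varied with strength. The next shares are for WT-only regions, those with 1 to 3 KO calls and those called in all 8, in order. Between percentiles of 10 and 20, LPS was above in 15.2%, 17.6% and 17.3%, and below in 23.2%, 26.9% and 23.5%. Between 20 and 30 it was above in 21.9%, 21.5% and 27.9%, and below in 21.9%, 33.8% and 25.4%. Between 30 and 40 it was above in 32.9%, 25.9% and 25.9%, and below in 27.6%, 37.5% and 32.4%. Under 10, the WT-only share above was 19.7%, between the other classes, and the shares below were 16.7%, 24.0% and 24.0%. The WT-only share below was the lowest in each bin under 40, though close to that of all 8 between 10 and 20 (58 of 250 against 46 of 196). Under 10 the 3 shares rest on few regions, 11 of 66, 40 of 167 and 6 of 25. With 2 libraries against 2, an exact two-sided permutation test cannot go below p = 0.333, so no region was tested.

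The 5 largest positive differences were led by Iqck (percentiles of 10.2 and 14.0 untreated, 48.0 and 55.9 with LPS), Ccdc38 (22.4 and 15.2, then 71.4 and 44.2) and Nr6a1, an orphan nuclear receptor (5.17 and 21.1, then 47.4 and 50.1). Pacsin1, an endocytosis gene, and Wdr1, which helps take apart actin filaments, followed with differences of 31.9 each. The 5 largest negative differences were led by a region on chromosome 3 from 120649034 to 120649534 (58.6 and 57.4 untreated, 22.2 and 11.5 with LPS), one on chromosome 18 from 8677446 to 8678112 (46.4 and 38.3, then 6.70 and 4.02), and Galnt6 (55.0 and 58.1, then 20.7 and 20.7). Stk32c, a kinase gene whose promoter was among the 16, had 37.2 and 34.0, then 0.419 and 1.68. A region on chromosome 2 from 61922511 to 61922894 completed them, with a difference of -32.7. Of these last 5, 3 were regions with no protein-coding gene within 50 kb, and for those the nearest KO peak was 106 kb to 300 kb away.

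**Figure D4:**
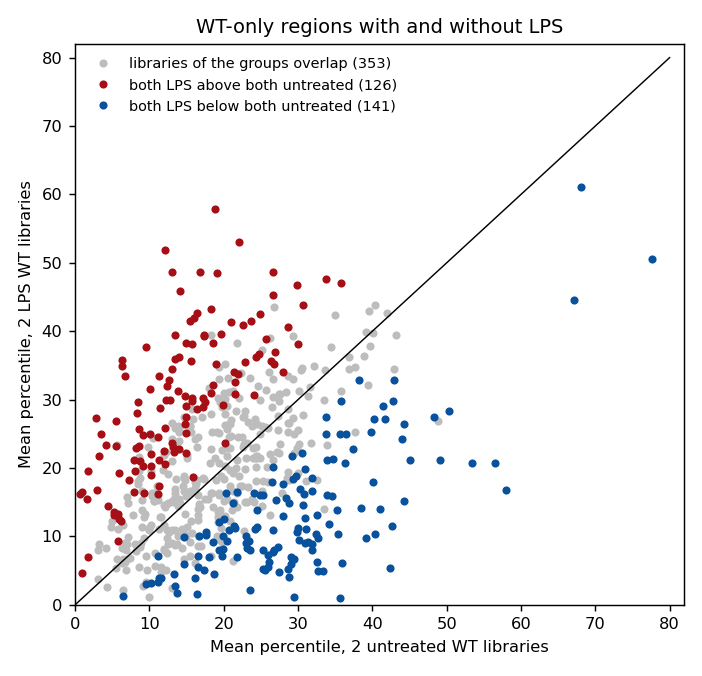
Mean percentile of -log10 p of each WT-only region in the 2 LPS WT libraries (vertical axis) against the 2 untreated WT libraries (horizontal axis). The 126 regions with both LPS libraries above both untreated ones and the 141 with the reverse lie on either side of the line of equality.

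By position, the WT-only regions were seldom at gene ends. Of the 620, 51 (8.23%, exact 95% binomial interval 6.19 to 10.7) had their summit within 1 kb of either end of a protein-coding gene. The share was 12.4% in regions with 1 to 3 KO calls, 28.9% in regions called in all 8 and 17.3% over all regions. The WT-only share was also the lowest of the 3 classes within each bin of strength under 40. Between percentiles of 10 and 20 the shares were 11.6%, 18.3% and 19.4% in the 3 classes, and between 20 and 30 they were 5.02%, 12.9% and 14.9%. Regions are not independent replicates, intervals cover counting error only, and no test was made of these differences. With peaks of a -log10 p of at least 20 only, 64 of the 518 regions then meeting the rule (12.4%) were at gene ends. Of the 620, 75 had such a value in all 4 WT lists, so most of the 518 are other regions. The strongest of the 51 were at Ccdc69, Kcnk12 and Cfd, which encodes the complement protease adipsin, at percentiles of 36.2, 33.5 and 32.4.

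Most WT-only regions were intragenic, 347 of 620 (56.0%), close to the 54.1% of regions called in all 8 and the 55.5% of all regions. A further 61 outside genes had no protein-coding gene within 50 kb. The median width was 347 bp against 397 bp in regions with 1 to 3 KO calls and 540 bp in those called in all 8. Between percentiles of 20 and 30 the widths were 338, 381 and 419 bp. A region spans all its merged peaks, so width tends to grow with the number of libraries called. That number differs between these classes by definition, so the widths cannot be read as a trait of the WT-only regions. Within a region the summits of the WT libraries had a median spread of 66.0 bp. Merging by overlap keeps this spread below the width of the region, and it was not compared with other classes. Gene-poor surroundings, with 2 or fewer protein-coding genes in the 1 Mb around the summit, held 4.68% of the WT-only regions, 3.79% of regions called in all 8 and 5.16% of all regions.

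The surroundings of the WT-only regions were compared with those of the other classes, with no test. The nearest KO peak was a median of 6.47 kb away, within 500 bp for 43 regions and within 10000 bp for 409 (66.0%). A KO peak of another region lay within that distance for 72.2% of regions with 1 to 3 KO calls, 77.2% of those called in all 8 and 73.3% of all regions. For 462 of the 559 regions assigned to a gene (82.6%), the same gene had a region called in all 8 libraries, near the 83.3% of all assigned regions that had another such region at their gene. The 559 regions fell on 546 genes, of which 13 had a pair of them and none had more. Those with a pair included Runx2, a transcription factor of bone cells, and Prkcb, a signalling kinase, each with many regions of other classes (29 and 22 in all). Another member lay within 50000 bp for 44 regions (7.10%).

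Chromosome 3, which carries Lmna, had the highest share of the 19 chromosomes. It held 49 of the WT-only regions, or 2.57% of its 1905 regions called in all 4 WT libraries, while the other chromosomes ranged from 1.05% to 1.82%. Within 20 Mb of Lmna the share was 1.74% (14 of 805) and on the rest of the chromosome 3.18% (35 of 1100), against 1.58% over all 19 chromosomes. The mirror set had 12 of its 51 regions (23.5%) on chromosome 3, beside 5.13% of all regions. Of these 12, 8 were within 20 Mb of Lmna. They are 15.7% of the 51, beside 1.91% of all regions and 2.26% of the WT-only regions. Under a percentile of 10, chromosome 3 held 6.06% of the WT-only regions and 5.39% of those with 1 to 3 KO calls. Of the 25 regions called in all 8 in that bin, it held 1. Between 10 and 20 it held 15 of 250 WT-only regions, a higher share than the 4.48% and 3.57% of the other 2 classes. Between percentiles of 20 and 30, chromosome 3 held 10.0% of the WT-only regions and 5.23% and 4.50% of the other 2 classes. Between 30 and 40 it held 5.26% of the WT-only regions and 5.34% of those called in all 8. The higher share was thus not seen in that bin of 76 WT-only regions. Above 40, the WT-only regions of Fcrl1, Sh3d19, Car2 and Cd5l lie on chromosome 3. Those of Tbx5, Sap30bp, Far1, Alpk2 and Fosb do not.

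**Figure D5:**
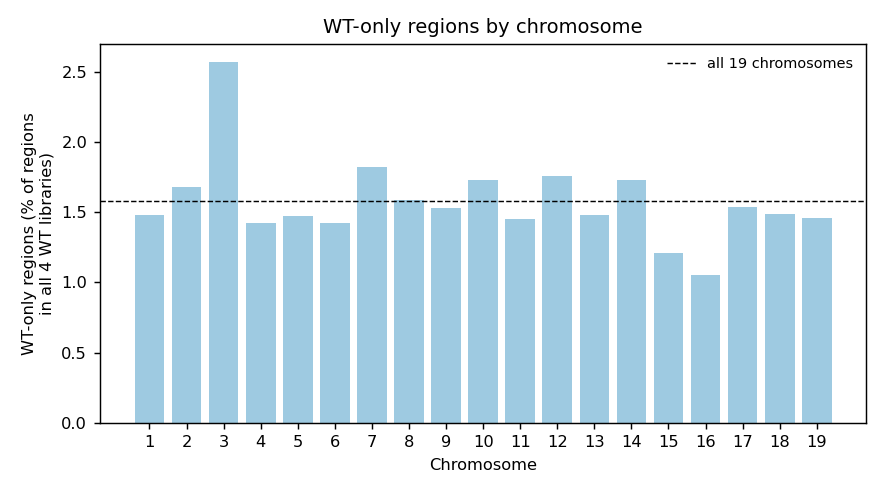
WT-only regions as a percentage of the regions called in all 4 WT libraries (vertical axis) on each of the 19 chromosomes (horizontal axis); the dashed line is the share over all 19. Chromosome 3 stands at 2.57% and the others lie between 1.05% and 1.82%.

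WT-only regions were spread thinly over the gene lists. Over all genes with any region, 546 of 14851 (3.68%) had one, and WT-only regions were 0.827% of the regions assigned to genes. Genes with more regions have more chances, so the share of regions is the fairer measure. Macrophage identity genes had 3 WT-only of 306 regions (0.980%), at Cd5l, Mertk and Runx1. Mertk, a receptor for the uptake of dying cells, had fold enrichments of 6.43 and 5.82 untreated and 9.19 and 5.82 with LPS. Runx1, a blood cell transcription factor, had 4.43, 4.64, 4.34 and 4.71 in the same order. Its groups overlapped, and 21 of the 44 regions assigned to Runx1 had a peak in every library.

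Inflammatory cytokines and enzymes had 3 of 211 regions (1.42%), at Ccl22, Lif and Edn1. The Edn1 region, 7.86 kb downstream of the gene for the peptide endothelin, had fold enrichments of 5.51 and 4.90 untreated and 5.51 and 7.19 with LPS. Lif, a cytokine of the IL-6 family, had 4.21 and 4.08 untreated and 3.75 and 4.49 with LPS. Neither group of values stood clear of the other in Lif. The NF-kB and Toll-like receptor list had 2 of 254 regions (0.787%). Traf6, a ubiquitin ligase that relays TLR4 signals, had percentiles of 1.07 and 7.31 untreated and 21.8 and 24.7 with LPS, and a KO peak lay 0.332 kb from its region. Nfkbie, an inhibitor of NF-kB, had 11.3 and 11.2 untreated and 11.8 and 23.0 with LPS. The interferon response list had 1 of 187 regions (0.535%), inside Rsad2, an antiviral enzyme gene, at percentiles of 12.9 and 26.2 untreated and 13.0 and 6.07 with LPS.

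AP-1 and immediate early genes had 4 of 220 regions (1.82%), at Fosb, Klf6, Nr4a2 and Myc. The Myc region, 38.2 kb outside the gene, was called at percentiles of 5.17 and 5.98 untreated and 1.17 and 45.4 with LPS, so its mean rests on 1 LPS library. Klf6, a zinc finger factor, had 12.7 and 13.6 untreated and 28.4 and 17.6 with LPS. Nr4a2, an orphan nuclear receptor, had 8.39 and 10.2, then 3.51 and 22.1, so its groups overlapped. Actin, adhesion and mechanosensing genes had 3 of 344 (0.872%). Ptk2b, an adhesion kinase of blood cells, was higher untreated (43.1 and 45.3) than with LPS (27.9 and 25.1). Itgb5, an integrin chain, was likewise higher untreated (25.6 and 39.8, then 3.18 and 6.84), while Itgal, the alpha chain of the leukocyte integrin LFA, was lower untreated (28.7 and 31.3, then 40.6 and 35.5). The nuclear envelope list had 1 of 128 regions (0.781%), that of Lmna, and the cell cycle list 1 of 149 (0.671%), in Ccnd1, the gene of cyclin D (29.1 and 13.0 untreated, 2.59 and 25.2 with LPS). The list of alternative activation, scavenging and lipid handling had none of 182 regions.

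Among marker genes of other cell types, B cells had 1 of 26 regions (Fcrl1), T and NK cells 1 of 30 (Lck), and stromal and endothelial cells 2 of 70 (Vwf and Tbx5). Neutrophil (23 regions), dendritic cell (76), erythroid and megakaryocyte (8) and stem and progenitor cell (46) markers had none. Vwf, the clotting factor gene, had percentiles of 19.4 and 25.8 untreated and 29.0 and 52.8 with LPS. Lck, a T cell kinase, had 1.07 and 0.325 untreated and 28.0 and 4.45 with LPS. In bulk libraries, a share of other cells and weak accessibility within macrophages cannot be told apart, and its part in these calls was not tested.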

How the data were processed

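ATAC-seq peak lists of 8 libraries were used. Reads were aligned with BWA 0.7.12 and peaks called with MACS2 on mm10, per the submitters' processing notes, 1 deposited list for each library. Any filter the authors put on the lists is not given in the sources used here. For each peak the authors deposited a fold enrichment over local background (a ratio), a -log10 p and -log10 q, a score equal to 10 times the -log10 p, and a summit. Read depth is unknown, so classes and conditions were compared by percentile within a list, and fold enrichments are shown as deposited.

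Peaks were merged, called and placed with Python 3.11.15, pandas 2.3.3 and scipy 1.17.1. The merging code was run on simulated lists whose regions lay far apart, so close neighbours and chained peaks were not tried. A region took the value of its strongest peak in a library. It was assigned to the RefSeq protein-coding gene (GRCm38.p6, 21896 genes) holding its summit, or else the nearest within 50 kb; where spans overlapped, the one with the nearest end was taken. Of 349 entries on 16 lists, 343 matched.

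The rule for named members took the 25 strongest, genes with 3 or more members, members at genes of the lists, the 10 strongest kept with equal numbers, the 5 largest LPS differences each way, and the 3 strongest regions of each class just outside the rule. Members at promoters and gene ends, some of the weakest members, and Runx2 and Prkcb were added after their values were seen. The members and lists were chosen with earlier results of these data known. Alternatives were larger overlaps, merging across gaps, a -log10 p of at least 20, equal numbers of peaks, other distances, other strength scales and leaving out each library.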

Additional observations from a re-analysis of the deposited data

How the results depend on the processing

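The count of 620 WT-only regions was 620 with overlaps of at least 50 bp and 580 with peaks up to 500 bp apart merged. It was 518 with a -log10 p of at least 20 and 96 with equal numbers of peaks. Of the 620, 75 (12.1%) had a -log10 p of at least 20 in all 4 WT lists, so most of the 518 are other regions. The count was 781 to 1151 with 1 library left out, since fewer libraries then had to meet the rule. It moved by over 1.5 times without WT LPS replicate 2, KO untreated replicate 2 or KO LPS replicate 1. The reverse count of 51 was 39 to 51 in the first 3 settings, 167 with equal numbers of peaks and 60 to 89 with 1 library left out, moving by over 1.5 times without WT LPS replicate 1 (80), KO untreated replicate 1 (88) or KO LPS replicate 2 (89). With equal numbers the order of the 2 counts turned; that setting drops the weakest peaks of the longer lists. The share at gene ends was 12.9% within 2 kb, 6.29% within 500 bp, 12.4% with a -log10 p of at least 20 and 6.25% with equal numbers. Assignment fell to 82.6% within 20 kb, and the share within 20 Mb of Lmna was 2.26 to 3.12%. The median LPS difference kept a positive sign on the other strength scales, at up to 1.04, and was -1.75 to 1.34 with 1 library left out, negative without WT untreated replicate 1 (-0.408) or WT LPS replicate 1 (-1.75). The 126 regions above and 141 below with LPS became 147 and 122 by percentile of fold enrichment and 150 and 124 by percentile among regions in all 4 WT libraries, which turns their order. They became 195 to 247 and 212 to 251 with any 1 WT library left out, over 1.5 times each, as fewer libraries had to agree. Taking the replicate number as a pair (replicate block), 175 were higher and 179 lower with LPS in both pairs. The correlation of deviations between same-numbered libraries over members was -0.04. This value cannot decide whether the numbers pair the samples, since members are weak peaks selected by their calls in these libraries. No pairing was assumed. The depth of the libraries is unknown, which limits how an absent call can be read.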

Other observations

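Chromosomes X and Y are outside the rule. On chromosome X, 40 of 747 regions called in all 4 WT libraries (5.35%) were in no KO list and 0 were in all 4 KO and no WT list, while the 19 autosomes ranged from 1.05% to 2.57%. On chromosome Y the count was 1 of 13, with 1 in the reverse set. The sex of the animals is not given in the sources used here.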
